A study of Mus musculus with 12 samples.

Results

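Acute-phase proteins are plasma proteins, and a few intracellular regulators, whose liver mRNA changes when inflammatory cytokines reach the hepatocyte. Interleukin-6 acts through its receptor Il6ra and the shared subunit Il6st to activate Stat3, interleukin-1 and Tnf act through NF-kB, and the C/EBP factors Cebpb and Cebpd act with both at the promoters of these genes. The genes described here are 10 of the 56748 genes counted, taken by name: the serum amyloid A genes Saa1, Saa2 and Saa3, the orosomucoid genes Orm1, Orm2 and Orm3, haptoglobin (Hp), lipocalin 2 (Lcn2), the serine protease inhibitor Serpina3n and Socs3, the inhibitor of cytokine signaling that Stat3 itself switches on. Their liver mRNA was compared across 3 genotypes.

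Whole liver RNA was sequenced from 12 mice fasted for 24 h, 4 of each genotype. The WT group carries floxed alleles that its label gives as CPT1A, 1B and 2, the SKO group lacks Cpt2, the mitochondrial enzyme needed to oxidise long-chain fatty acids, in the liver, and the DKO group lacks both Atf3, a stress-induced transcription factor, and Cpt2 there. The floxed Atf3 allele came from a C57BL/6N line, the study names C57BL6 lines for the mice of its protein screen, and the liver KOs were made with Albumin-Cre, which follows the albumin promoter of the hepatocyte lineage, so that the deletion does not cover every cell of the liver. No source used here gives the age of these mice, and the labels do not say whether WT, SKO and DKO mice were littermates. The study describes its controls for the double KO as floxed for Atf3 and Cpt2, while the WT label names CPT1A, 1B and 2. If the WT mice came from another line, effects of line and genotype cannot be told apart in comparisons with WT.

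The libraries held 14710304 to 20030055 reads assigned to genes per liver. Values are given as CPM, library-scaled counts after TMM normalization over all 12 livers, and a gene with no counts in a liver could still have held up to 3 counts, or 0.145 to 0.195 CPM, which covers counting error only. Cpt2 had 199 to 250 CPM in WT livers, 109 to 159 CPM in SKO livers and 99.9 to 126 CPM in DKO livers. Atf3 had 1.11 to 2.14 CPM in WT livers, 14.5 to 54.0 CPM in SKO livers and 0.266 to 13.5 CPM in DKO livers, so 3 of the 4 DKO livers stood above every WT liver. These counts cover the whole gene, including what lies outside a deleted exon. SKO replicate 3 and DKO replicate 4 held 18063 and 20855 counts of Xist, which marks female cells, and at most 2 counts of 4 Y-linked genes, while the other 10 livers held at most 19 counts of Xist and at least 2741 Y-linked counts, although the study describes the mice of this experiment as male. DKO replicate 4 was also the DKO liver with the least Atf3 mRNA, so results that rest on it are given with and without it. The hepatocyte marker albumin (Alb) was abundant in every group, at 51850 to 65151 CPM in WT livers, 22524 to 44518 CPM in SKO livers and 24688 to 74165 CPM in DKO livers. In whole liver, fewer cells of a type and less RNA per cell cannot be told apart.

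The promoters of the Saa and Orm genes are shown for 2 reasons. Saa1 and Saa2 were far above all other livers in SKO replicate 1 and DKO replicate 2, and Saa3 was not. Orm2 changed with genotype while Orm3 did not pass the test. RefSeq promoter windows of GRCm38.p6, from 250 bases before to 50 bases after the annotated start, were matched by symbol for 8 of the 10 genes, leaving out Hp and Orm1. The 250 bases before the start are written in the direction of transcription, and capitals mark matches, on either strand, to a C/EBP motif (TTGCNNAA) or an AP-1 motif (TGANTCA). They lie at chr7:46742981-46743230 on the minus strand for Saa1, chr7:46751583-46751832 on the plus strand for Saa2, chr7:46715677-46715926 on the minus strand for Saa3, chr4:63362199-63362448 on the plus strand for Orm2 and chr4:63355908-63356157 on the plus strand for Orm3.
Saa1: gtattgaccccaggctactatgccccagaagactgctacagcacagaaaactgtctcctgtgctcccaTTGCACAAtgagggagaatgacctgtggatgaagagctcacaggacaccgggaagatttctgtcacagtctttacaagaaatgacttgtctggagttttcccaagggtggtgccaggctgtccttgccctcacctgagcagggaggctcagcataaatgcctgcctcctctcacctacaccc
Saa2: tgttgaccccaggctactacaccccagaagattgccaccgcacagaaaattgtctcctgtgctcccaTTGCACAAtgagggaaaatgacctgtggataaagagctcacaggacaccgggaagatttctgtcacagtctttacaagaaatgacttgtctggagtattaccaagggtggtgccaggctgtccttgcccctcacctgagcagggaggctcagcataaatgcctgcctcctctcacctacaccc
Saa3: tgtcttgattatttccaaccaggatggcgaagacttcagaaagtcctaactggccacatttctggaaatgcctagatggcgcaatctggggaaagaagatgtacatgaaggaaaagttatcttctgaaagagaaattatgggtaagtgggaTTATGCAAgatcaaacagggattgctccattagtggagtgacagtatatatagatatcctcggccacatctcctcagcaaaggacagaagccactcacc
Orm2: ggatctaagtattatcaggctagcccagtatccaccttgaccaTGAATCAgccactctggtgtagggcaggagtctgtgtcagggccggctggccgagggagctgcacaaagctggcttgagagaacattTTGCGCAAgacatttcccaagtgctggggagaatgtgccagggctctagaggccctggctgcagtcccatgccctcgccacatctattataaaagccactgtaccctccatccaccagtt
Orm3: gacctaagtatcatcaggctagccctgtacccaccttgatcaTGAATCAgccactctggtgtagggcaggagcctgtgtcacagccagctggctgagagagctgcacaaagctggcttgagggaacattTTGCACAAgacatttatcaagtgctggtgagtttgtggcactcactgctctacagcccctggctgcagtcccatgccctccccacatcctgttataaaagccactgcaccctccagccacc

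Each of these 5 windows held 1 C/EBP match, and Lcn2 held another, so 6 of 8 windows had the motif against 10.8% of 32851 windows in the table. In Saa1 and Saa2 the match read TTGCACAA at 182 and 183 bases before the start, and these windows were identical in 95.3% of aligned positions. The Saa3 window was identical to that of Saa1 in 50.1%, and its match lay 99 bases before the start. Orm2 and Orm3 both carried TGAATCA and a C/EBP match at like distances, and their windows were identical in 86.2%. An NF-kB match was found in Serpina3n, 1 of 8 windows against 4.79% of all, and a STAT match (TTCNNNGAA) in Socs3, 1 of 8 against 8.30%. AP-1 matches were in 2 of 8 windows against 7.81% of all, and no window of the 8 held the cyclic AMP element (1.79% of all). The windows of Saa1 and Saa2, and those of Orm2 and Orm3, are near copies of each other. Their matches are thus not independent counts against the shares of all windows. A match is only a run of letters and does not show that a factor bound there.

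**Figure D1:**
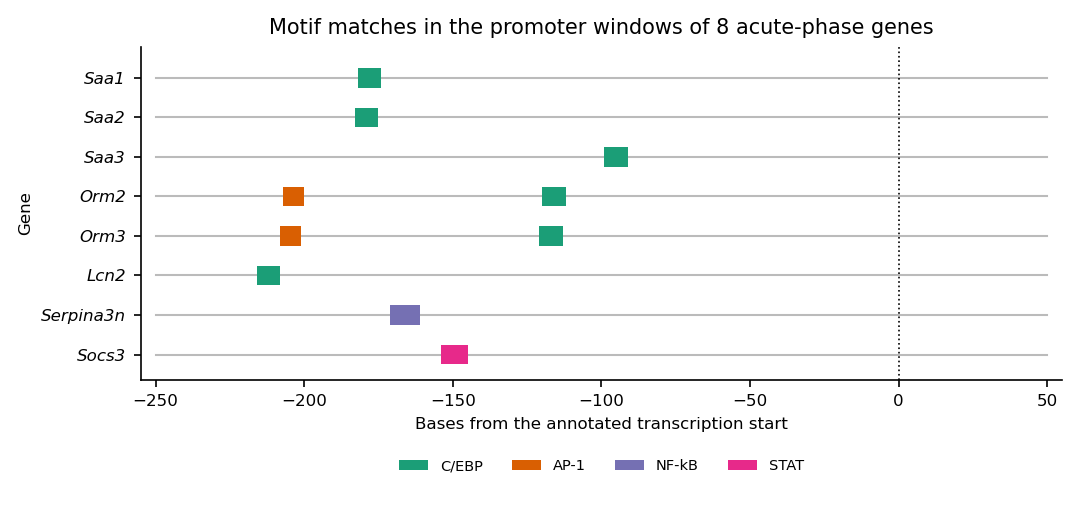
Motif matches in the promoter windows of 8 acute-phase genes, with bases from the annotated transcription start (dotted line at 0) on the horizontal axis, 1 gene per row, and coloured bars for C/EBP, AP-1, NF-kB and STAT matches. The C/EBP bars of Saa1 and Saa2 sit at nearly the same distance, as do both bars of Orm2 and Orm3.

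To order the genes by level, the deposited FPKM, which divides by gene length, was used for WT livers. Hp was highest at a median of 2273 FPKM, followed by Orm1 at 505 FPKM, Serpina3n at 303 FPKM and Saa1 at 20.8 FPKM, and the ranges of these 4 genes did not overlap each other or those below. Orm2 (7.11 FPKM), Socs3 (6.17 FPKM), Orm3 (5.97 FPKM), Saa2 (4.61 FPKM), Lcn2 (3.69 FPKM) and Saa3 (2.61 FPKM) followed in that order, and each of these overlapped the next one in the order. For the Saa genes this scale is low, since the table gives Saa1 a length of 2478 bases where its first protein-coding transcript in GENCODE M21 has 609. The order of the lower genes depends on the lengths used. Without division by length, Saa2 (median 11.1 CPM) and Lcn2 (9.24 CPM) lay above Orm2 (5.27 CPM) in WT livers. Hp alone held 65.2 to 80.4% of the counts of the 10 genes in each liver, and the 10 genes together held 0.192 to 0.461% of all counts.

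The SKO against WT comparison asks how these mRNAs differ with loss of hepatic Cpt2 in the fasted state, with any difference of mouse line included. Serpina3n, Hp and Saa3 fell in SKO livers and Orm2 rose, while Saa1 and Saa2 split the SKO livers into 1 very high and 3 low ones. By the quasi-likelihood test of edgeR, with p-values adjusted by Benjamini-Hochberg, 1 of the 10 genes was higher and 3 were lower at an adjusted p under 0.05, against a background of 16.7% of 14261 tested genes called higher and 15.4% called lower. The median log2 fold change was -0.61 over the 10 genes and 0.03 over all tested genes. Without SKO replicate 3, the background was 17.3% higher and 15.2% lower, and again 1 of the 10 was higher and 3 were lower. DESeq2 called 1 of the 10 higher and 4 lower, Socs3 being the addition, against 16.9% and 17.2% of all genes. Scaling by total counts, without TMM, moved the median of all genes to 0.20 and the share of calls that were higher from 52.0 to 70.6%, and 4 of the 10 genes were still called.

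The DKO against WT comparison asks the same with Atf3 also lost, and it uses the same WT livers. Orm2 rose, and Saa3 and Serpina3n fell, so 1 of the 10 genes was higher and 2 were lower, against 6.06% of 14448 tested genes higher and 4.39% lower. The median log2 fold change of the 10 was -0.51, against 0.03 over all tested genes. Without DKO replicate 4, 1 gene was higher and 4 were lower, as Hp and Lcn2 then also fell, but the background grew as well, to 18.4% higher and 17.5% lower. DESeq2 on all 8 livers called 1 of the 10 higher and 3 lower, with Hp added, against 9.72% and 8.64% of all genes. Scaling by total counts moved the median of all genes to 0.20 and the share of calls that were higher from 58.0 to 79.2%, with 3 of the 10 genes called.

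The DKO against SKO comparison asks what loss of Atf3 adds. By edgeR none of the 10 genes passed the threshold, none had an unadjusted p under 0.05 (4.11% of all genes did and were higher, 2.38% lower), and DESeq2 also called none, giving Saa1 and Saa2 no adjusted p (0.470% of all genes higher, 0.210% lower), against an edgeR background of 0.00696% of 14363 tested genes higher and 0.0139% lower. Without DKO replicate 4 these shares were 0.0617% and 0.0411%, and again no gene of the 10 was called. The 95% confidence intervals of the log2 fold change were narrowest for Hp (-0.19 to 0.89) and Orm1 (-0.36 to 0.58) and widest for Saa2 (-3.43 to 2.26) and Saa1 (-3.39 to 2.03), so changes of several-fold in the Saa genes could not be detected with these livers.

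**Figure D2:**
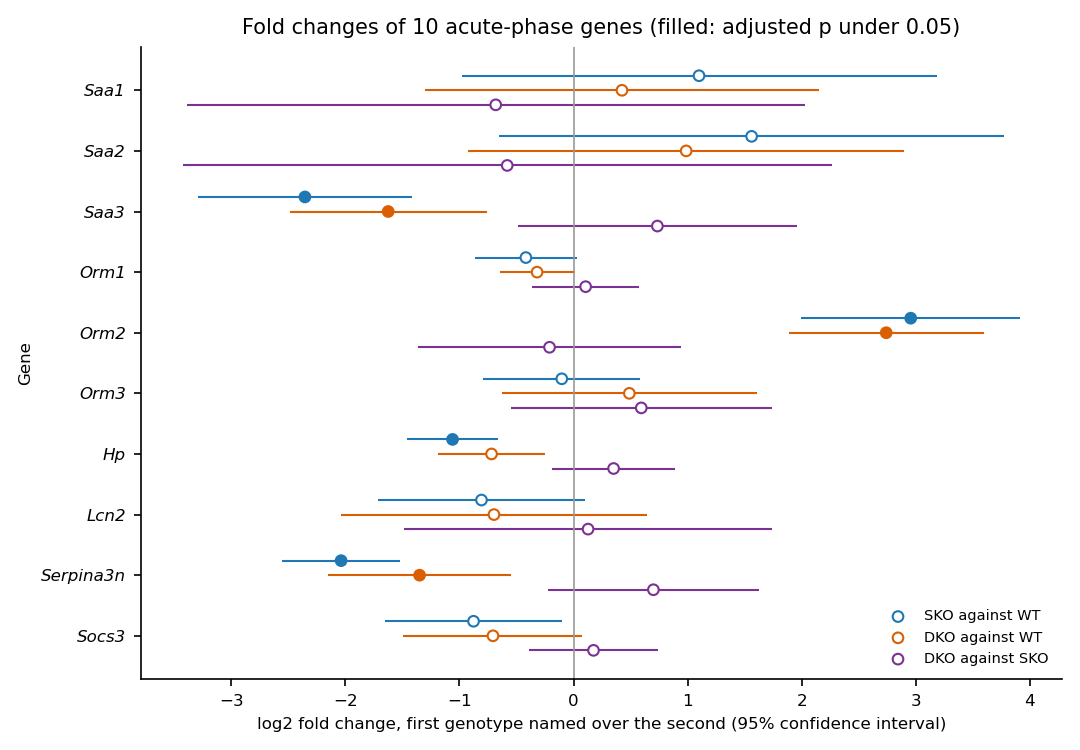
Log2 fold changes of 10 acute-phase genes with 95% confidence intervals (bars) for SKO against WT, DKO against WT and DKO against SKO, where filled points have an adjusted p under 0.05. Orm2 lies right of 0 in both KOs at 2.96 and 2.74, Serpina3n and Saa3 lie left of 0 in both, and every DKO against SKO interval spans 0.

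Saa1 and Saa2 encode the serum amyloid A proteins that hepatocytes release onto high-density lipoprotein. Saa1 had 51.2, 52.0, 47.3 and 27.4 CPM in WT replicates 1 to 4, 341 CPM in SKO replicate 1 and 7.42, 14.4 and 19.6 CPM in SKO replicates 2 to 4. In DKO livers it had 17.3, 189, 13.9 and 20.1 CPM. Thus 1 SKO and 1 DKO liver stood above all WT livers, and the other 3 of each KO stood below all of them. The log2 fold change was 1.10 (SE 0.95, edgeR adjusted p = 0.419) in SKO livers and 0.42 (SE 0.77, adjusted p = 0.757) in DKO livers. Without SKO replicate 1 it turned to -1.69 (adjusted p = 0.0026), and without DKO replicate 2 to -1.35 (adjusted p = 0.0348). These livers were singled out by their high Saa1 values, so the p-values without them do not test a fall.

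Saa2 followed the same livers. It had 11.2, 11.0, 16.8 and 6.65 CPM in WT livers, 124, 3.84, 3.84 and 4.04 CPM in SKO livers and 6.17, 74.5, 3.61 and 7.13 CPM in DKO replicates 1 to 4. The other KO livers lay below the lowest WT liver, except DKO replicate 4, which lay in the WT range. The log2 fold change was 1.56 (SE 1.01, edgeR adjusted p = 0.271) in SKO livers and 0.99 (SE 0.85, adjusted p = 0.475) in DKO livers, and it turned to -1.54 (adjusted p = 0.0025) without SKO replicate 1 and to -0.99 (adjusted p = 0.132) without DKO replicate 2. As for Saa1, these livers were singled out by their values. The spliced transcripts of Saa1 and Saa2 are identical in 93.9% of aligned positions with a shared run of 99 bases, so how reads were split between them is uncertain. Counted as 1 gene, their log2 fold change was 1.21 (adjusted p = 0.376) in SKO livers and 0.56 (adjusted p = 0.678) in DKO livers. There were 0.206 to 0.517 Saa2 counts per Saa1 count, with 0.363 in SKO replicate 1 and 0.394 in DKO replicate 2.

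Saa3, the serum amyloid A gene that macrophages and fat tissue also use, did not share the high values of Saa1 and Saa2 in SKO replicate 1 and DKO replicate 2. It had 6.71, 6.14, 11.2 and 6.32 CPM in WT livers, 2.66, 0.512, 1.98 and 0.842 CPM in SKO livers and 1.93, 1.65, 1.52 and 4.58 CPM in DKO replicates 1 to 4. Every KO liver lay below every WT liver. Saa3 fell 5.12-fold in SKO (log2 fold change -2.36, SE 0.43, edgeR adjusted p = 0.0015) and 3.09-fold in DKO livers (SE 0.39 on the log2 scale, adjusted p = 0.0317). Per Saa1 count, SKO replicate 1 and DKO replicate 2 held 0.0078 and 0.00874 Saa3 counts, below the other livers at 0.043 to 0.237. Their high Saa1 counts alone lower this ratio, so it says little about Saa3. Among SKO livers, replicate 1 also had the most Saa3 (2.66 CPM). The DKO call was lost (adjusted p up to 0.0922) when any WT liver or any of DKO replicates 1 to 3 was left out, and leaving out DKO replicate 4 gave a log2 fold change of -2.14 (adjusted p = 0.000156).

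Macrophage marker sums over 10 genes, Adgre1 among them, were 220 to 438 CPM in WT livers, 212 to 521 CPM in SKO livers and 132 to 432 CPM in DKO livers, and the highest DKO sum was in replicate 4, the DKO liver with most Saa3. In SKO livers 1 macrophage marker of 10 was higher (Cd68) and none was lower, against 16.7% and 15.4% of all genes, with a median log2 fold change of 0.02. Without SKO replicate 3, the SKO liver with the highest sum, Marco was also lower (-1.44, edgeR adjusted p = 0.0417) and the median was -0.35. In DKO livers 1 was lower (Marco), against 4.39%. With DKO replicate 4 left out, 7 of the 10 were lower and Cd68 was higher, against 17.5% and 18.4% of all genes. In DKO against SKO edgeR called none of the 10, and 2 were lower at an unadjusted p under 0.05, against 2.38% of all genes. The median log2 fold change there was -0.48, or -1.05 without DKO replicate 4. The part of macrophages in the Saa3 values was not tested. The 5 adipocyte markers summed to at most 0.674 CPM in any liver.

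**Figure D3:**
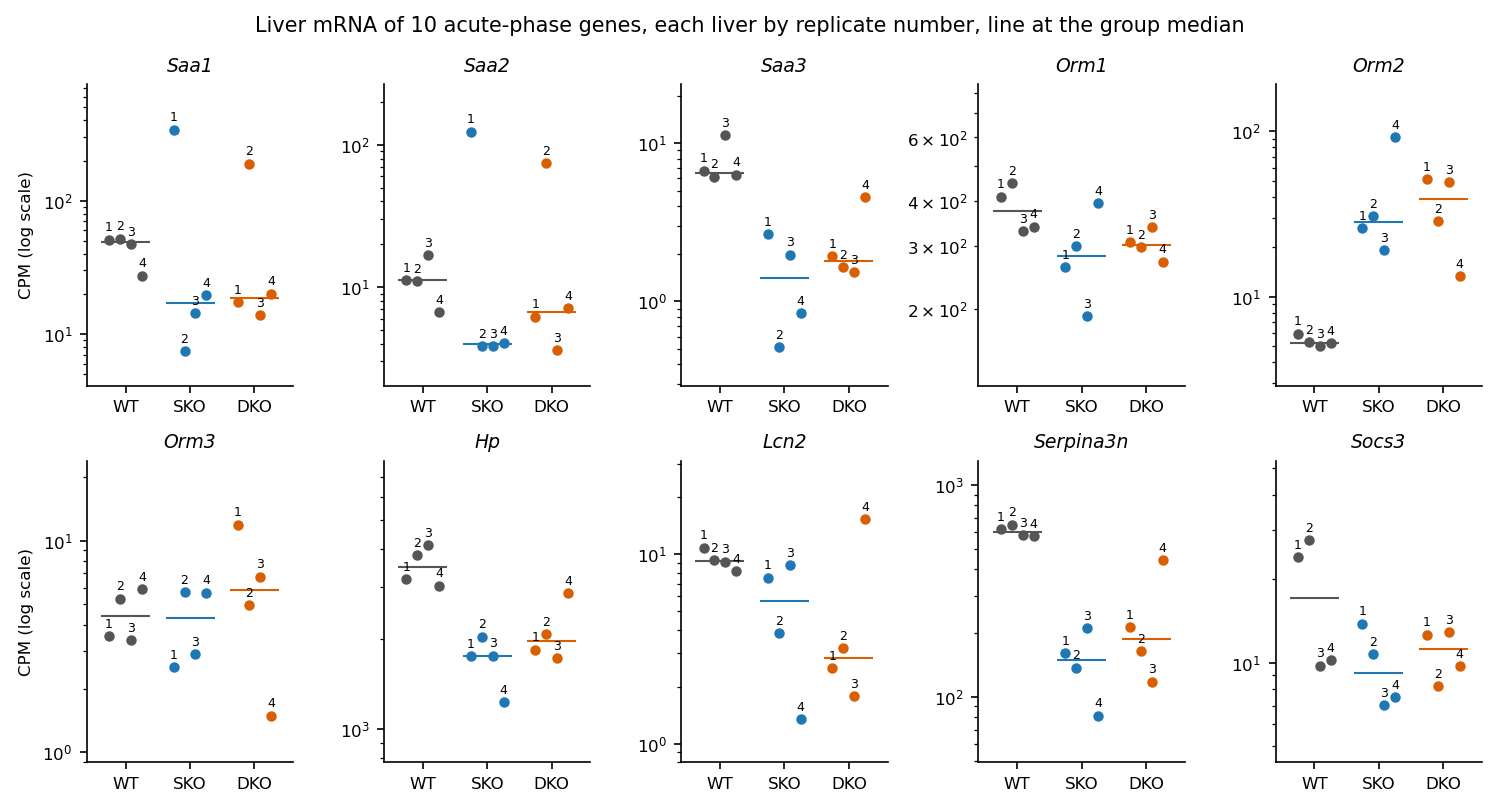
CPM on a log scale of each of 10 acute-phase genes, with 1 point per liver labelled by its replicate number and a line at the median of each genotype. Saa1 and Saa2 each show SKO replicate 1 and DKO replicate 2 far above the rest, while Orm2 is higher in every KO liver than in any WT liver.

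The orosomucoids are carrier proteins of plasma that bind many drugs. Orm2 had 5.98, 5.32, 5.01 and 5.22 CPM in WT livers, 25.9, 30.7, 19.1 and 92.3 CPM in SKO livers and 51.5, 28.6, 49.4 and 13.3 CPM in DKO replicates 1 to 4. All 8 KO livers lay above all WT livers, and SKO replicate 4 stood highest. Orm2 rose 7.76-fold in SKO (log2 fold change 2.96, SE 0.44, edgeR adjusted p = 0.000385) and 6.68-fold in DKO livers (log2 fold change 2.74, SE 0.38, adjusted p = 0.00825). It was the only one of the 10 genes called higher, and it was called in each of the 15 alternatives in both comparisons. Without SKO replicate 4 its log2 fold change was 2.23, and without DKO replicate 4 it was 3.01 (adjusted p = 1.98e-06).

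Orm1, by far the most abundant of the family, had 411, 449, 329 and 339 CPM in WT livers, 261, 299, 191 and 394 CPM in SKO livers and 307, 297, 338 and 271 CPM in DKO replicates 1 to 4. The groups overlapped, with log2 fold changes of -0.42 (SE 0.20, edgeR adjusted p = 0.141) in SKO and -0.32 (SE 0.15, adjusted p = 0.180) in DKO livers. Without SKO replicate 4, singled out as the SKO liver with the most Orm1, the SKO value was -0.60 (adjusted p = 0.0332). Orm3 had 3.38 to 5.88 CPM in WT livers, 2.53 to 5.73 CPM in SKO livers and 1.49 to 11.9 CPM in DKO livers, with overlapping groups and log2 fold changes of -0.10 (SE 0.31, adjusted p = 0.837) and 0.49 (SE 0.50, adjusted p = 0.550).

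Orm2 made up 1.16 to 1.49% of all Orm counts in WT livers, 8.94 to 18.8% in SKO livers and 4.64 to 13.9% in DKO livers. The sum of the 3 genes was 392 ± 57.9 CPM (SD, n = 4) in WT livers, 333 ± 117 in SKO livers and 345 ± 47.5 in DKO livers, with log2 fold changes of -0.24 (edgeR adjusted p = 0.458) and -0.17 (adjusted p = 0.511). The spliced transcripts of Orm1 and Orm2 are identical in 91.0% of aligned positions, with a shared run of 141 bases, and those of Orm2 and Orm3 in 88.0%. The counting program is not given in the sources used here, so part of the reads could have been assigned to the wrong Orm gene.

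Serpina3n, which inhibits serine proteases such as those of neutrophils, had 617, 649, 579 and 573 CPM in WT livers, 160, 137, 211 and 81.6 CPM in SKO livers and 212, 164, 118 and 442 CPM in DKO replicates 1 to 4. Every KO liver lay below every WT liver, and DKO replicate 4 was closest to WT. Serpina3n fell 4.11-fold in SKO livers (log2 fold change -2.04, SE 0.24, edgeR adjusted p = 7.88e-05) and was called in all 15 alternatives. In DKO livers it fell 2.55-fold (log2 fold change -1.35, SE 0.36, adjusted p = 0.0433). That call was lost (adjusted p up to 0.114) when any WT liver or any of DKO replicates 1 to 3 was left out, and leaving out DKO replicate 4 gave a log2 fold change of -1.87 (adjusted p = 2.32e-05).

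Haptoglobin, the plasma protein that binds free hemoglobin, had 3172, 3827, 4135 and 3026 CPM in WT livers, 1759, 2042, 1761 and 1233 CPM in SKO livers and 1846, 2085, 1725 and 2858 CPM in DKO replicates 1 to 4. No KO liver reached the lowest WT liver. Hp fell 2.09-fold in SKO livers (log2 fold change -1.06, SE 0.18, edgeR adjusted p = 0.00102), again in all 15 alternatives. In DKO livers the log2 fold change was -0.72 (SE 0.21, adjusted p = 0.0571), which missed the threshold. DESeq2 called it on the same livers (adjusted p = 0.00445), and it passed in 4 of 15 alternatives. Without DKO replicate 4 the edgeR value was -0.90 (adjusted p = 0.000553), and leaving out the livers with Xist counts is the same fit here, counted again among the 15.

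Lipocalin 2, which binds bacterial iron carriers, had 10.9, 9.30, 9.17 and 8.13 CPM in WT livers, 7.53, 3.84, 8.78 and 1.35 CPM in SKO livers and 2.51, 3.19, 1.78 and 15.3 CPM in DKO replicates 1 to 4. DKO replicate 4 lay above all WT livers and the other 3 DKO livers lay below all of them. The log2 fold change was -0.81 (SE 0.42, edgeR adjusted p = 0.164) in SKO and -0.70 (SE 0.60, adjusted p = 0.471) in DKO livers, and -1.91 (adjusted p = 8.89e-05) without DKO replicate 4. DESeq2 gave no adjusted p for the DKO value. Neutrophils also hold Lcn2, and the 10 neutrophil markers summed to 2.31 to 5.41 CPM in WT livers, 2.19 to 5.30 in SKO livers and 2.41 to 4.68 in DKO livers. Of these S100a8 had at most 0.520 CPM in any liver, and Ly6g and Mpo were at 0 in all WT and DKO livers, and 1 of the 10 (Csf3r) was high enough to test on all livers and was not called. S100a9 could be tested too without DKO replicate 4 (log2 fold change -0.47, edgeR adjusted p = 0.569).

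Socs3 had 24.0, 27.6, 9.75 and 10.2 CPM in WT livers, 13.8, 10.7, 7.01 and 7.52 CPM in SKO livers and 12.6, 8.21, 12.9 and 9.69 CPM in DKO replicates 1 to 4. WT replicates 1 and 2 stood apart from every other liver, and WT replicates 3 and 4 lay among the KO livers. The log2 fold change was -0.88 (SE 0.35, edgeR adjusted p = 0.0797) in SKO and -0.71 (SE 0.35, adjusted p = 0.212) in DKO livers. The SKO value passed the threshold in 5 of 15 alternatives, among them DESeq2 (adjusted p = 0.0297) and the fits without WT replicate 3 (adjusted p = 0.0301) or WT replicate 4 (adjusted p = 0.0368), the WT livers with the lowest values. Without WT replicate 2, the highest, it was -0.61 (adjusted p = 0.229).

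**Figure D4:**
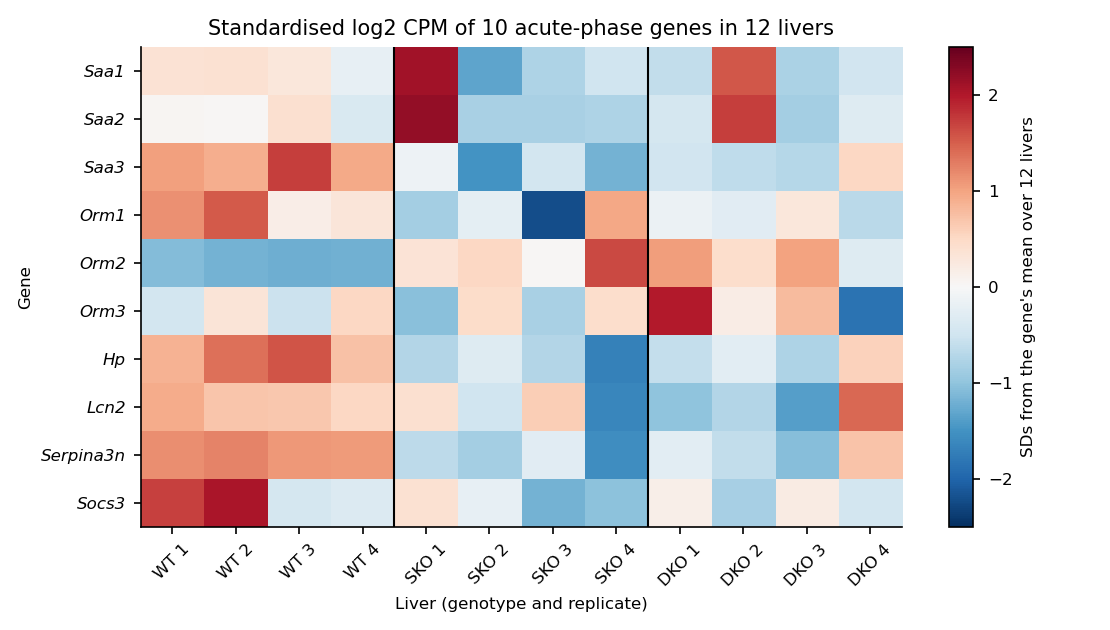
Standardised log2 CPM of 10 acute-phase genes (rows) in 12 livers (columns, by genotype and replicate), where colour gives the number of SDs from the mean of the gene over the 12 livers. Red in SKO replicate 1 and DKO replicate 2 is seen for Saa1 and Saa2 at 1.55 to 2.19 SDs, and DKO replicate 4 is red for Hp, Lcn2, Serpina3n and Saa3.

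The livers that stood out differed between genes. SKO replicate 1 was the highest SKO liver for 4 of the 10 genes (Saa1, Saa2, Saa3 and Socs3) and for 4 of 24 other positive acute-phase genes, or 16.7%, against 22.3% of all 14920 genes compared. SKO replicate 3 was the highest SKO liver for Lcn2 and Serpina3n and for 14 of the 24, or 58.3%, against 24.8% of all genes. DKO replicate 2 was the highest DKO liver for Saa1 and Saa2 and for 2 of the 24, or 8.33%, against 27.1% of all genes. DKO replicate 4 was the highest DKO liver for Hp, Lcn2, Serpina3n and Saa3 and for 19 of the 24, or 79.2%, against 33.2% of all genes. In WT the highest liver for 18 of the 24 was replicate 3, or 75.0%, against 28.8% of all genes.

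Likeness to the 10 genes was measured as the mean absolute difference, over 12 livers, from the mean of their standardised levels. The nearest other genes were Gm32391 (0.435 SDs), C920021L13Rik (0.437), Zbtb5 (0.439), Rsad2 (0.441) and Fkbp15 (0.441), against a median of 0.863 over 14910 genes. The smallest of so many distances lie below the median by how they are picked. The mean also joins genes that rose with genes that fell, such as Orm2 and Serpina3n. Shared regulation was not tested.

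The other positive acute-phase genes, 24 plasma proteins and regulators, gave the wider setting. In SKO livers 2 were higher and 15 were lower (16.7% and 15.4% of all genes), with a median log2 fold change of -0.68 against 0.03 over all genes. Saa4, the constitutive serum amyloid A gene next to the other Saa genes, fell from 209 ± 49.8 CPM (SD, n = 4) in WT to 8.05 ± 4.95 in SKO livers (log2 fold change -4.71, edgeR adjusted p = 5.8e-06). The fibrinogen gamma chain Fgg fell from 1777 ± 218 to 302 ± 97.0 CPM (-2.56, adjusted p = 2.39e-05), and Steap4, a metalloreductase, from 68.8 ± 12.6 to 23.0 ± 4.31 CPM (-1.58, adjusted p = 4.05e-05). Cd14, the coreceptor for endotoxin, rose from 2.92 ± 0.60 to 13.4 ± 2.61 CPM (2.19, adjusted p = 2.52e-05), and the metal-binding Mt1 rose from 115 ± 93.1 to 252 ± 27.5 CPM (1.13, adjusted p = 0.0455) with overlapping groups. Without SKO replicate 3, Cd14 alone was higher and 14 genes were lower, against 17.3% and 15.2% of all genes.

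In DKO livers 3 of the 24 were higher (Cd14, Mt1 and Mt2) and 1 was lower (Lrg1) by edgeR, against 6.06% and 4.39% of all genes, with a median of -0.44, while DESeq2 called 3 higher and 6 lower on the same livers, against 9.72% and 8.64%. Lrg1, a secreted leucine-rich glycoprotein, fell from 192 ± 19.4 to 119 ± 8.54 CPM (log2 fold change -0.68, edgeR adjusted p = 0.0154). Without DKO replicate 4 the same 3 genes were higher and 14 were lower, with a median of -0.73, while the share of all genes called lower grew from 4.39 to 17.5%. Saa4 had 5.08 to 6.25 CPM in DKO replicates 1 to 3 and 115 CPM in replicate 4, and its log2 fold change moved from -2.63 (adjusted p = 0.112) to -5.16 (adjusted p = 1.07e-07) without that liver. In DKO against SKO edgeR called none of the 24, with 5 higher and 1 lower at an unadjusted p under 0.05 against 4.11% and 2.38% of all genes, and DESeq2 called 1 lower against 0.210%.

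**Figure D5:**
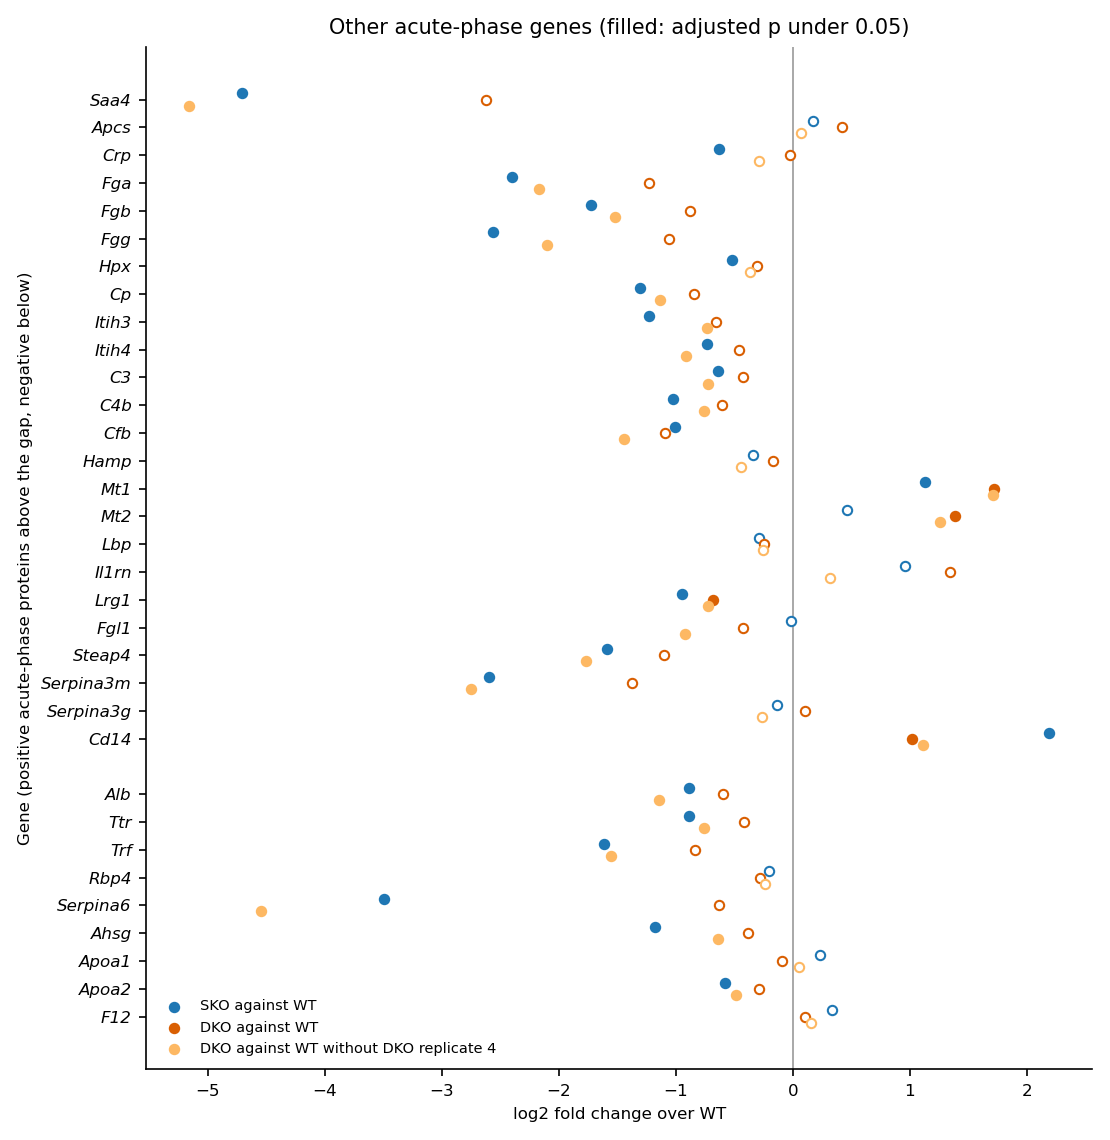
Log2 fold change over WT of 24 other positive and 9 negative acute-phase genes in SKO livers, in DKO livers and in DKO livers without replicate 4, where filled points have an adjusted p under 0.05. Most points of both lists lie left of 0, Cd14 and Mt1 lie right of 0, and leaving out DKO replicate 4 moves Saa4, the fibrinogen chains and Serpina6 further left.

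The negative acute-phase genes are plasma proteins whose mRNA falls in inflammation. Of 9 genes, edgeR called none higher and 6 lower in SKO livers, as did DESeq2 (15.4% of all genes were lower by edgeR and 17.2% by DESeq2), with a median log2 fold change of -0.89. At an unadjusted p under 0.05, which 22.0% of all genes met as higher, there was 1 higher, the coagulation factor F12, with 509 to 661 CPM in WT livers and 695 to 950 CPM in SKO livers, which do not overlap (log2 fold change 0.34, edgeR adjusted p = 0.105). Transferrin (Trf) fell from 12037 ± 937 to 3949 ± 196 CPM (log2 fold change -1.61, edgeR adjusted p = 1.25e-05), the corticosteroid carrier Serpina6 from 108 ± 37.5 to 9.62 ± 6.86 CPM (-3.50, adjusted p = 0.000139), and fetuin-A (Ahsg) from 6732 ± 498 to 2979 ± 517 CPM (-1.18, adjusted p = 0.000224). In DKO livers edgeR called none of the 9, none had an unadjusted p under 0.05 (16.6% of all genes did and were higher, 12.8% lower), and DESeq2 called 1 lower, against 8.64%, with a median of -0.38. Without DKO replicate 4 edgeR called 6 lower, against 17.5% of all genes, with a median of -0.64. Positive and negative acute-phase genes thus had medians of the same sign in SKO livers. The 8 hepatocyte markers, of which Alb gave most of the sum and Alb and Ttr are also on the negative list, summed to 75449 to 94080 CPM in WT livers, 40655 to 65993 CPM in SKO livers and 36472 to 94794 CPM in DKO livers, with the highest DKO sum again in replicate 4. Of them 5 were lower in SKO livers and 1 in DKO livers, none was higher in either, and without DKO replicate 4 there were 6 lower in DKO livers, where 15.4%, 4.39% and 17.5% of all genes were lower in these fits. The markers Hnf4a (log2 fold change -0.07, edgeR adjusted p = 0.739) and Cps1 (-0.03, adjusted p = 0.932) did not pass the test in SKO livers. Their part in these results was not tested. The 8 stellate cell and fibroblast markers summed to 175 to 201 CPM in WT livers, 234 to 330 CPM in SKO livers and 216 to 280 CPM in DKO livers. Of them 1 (Dcn) was called higher in SKO livers, against 16.7% of all genes. In DKO livers edgeR called none, and DESeq2 called 1 higher, against 9.72%. Without DKO replicate 4 Dcn was higher there too (log2 fold change 0.43, edgeR adjusted p = 0.0150), against 18.4% of all genes. The 5 cholangiocyte markers summed to 27.9 to 33.2 CPM in WT livers, 7.41 to 14.4 CPM in SKO livers and 9.60 to 31.2 CPM in DKO livers. Of 4 tested, Sox9 and Spp1 were lower in SKO and Sox9 in DKO livers, against 15.4% and 4.39% of all genes. Without DKO replicate 4 Spp1 was also lower in DKO livers (log2 fold change -1.19, edgeR adjusted p = 0.00276), against 17.5%. The part of stellate cells and cholangiocytes was not tested either. The 6 endothelial markers summed to 152 to 333, 198 to 270 and 181 to 259 CPM, with none called against WT by edgeR or DESeq2 and none at an unadjusted p under 0.05, and the 6 lymphocyte markers summed to at most 4.21 CPM.

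Of the interleukin-6 family list, 18 of 23 genes were tested, and 2 were higher and 5 lower in SKO livers, against 16.7% and 15.4% of all genes. The receptor subunit Il6ra fell from 143 ± 54.1 CPM in WT to 47.1 ± 21.2 CPM in SKO (log2 fold change -1.60, SE 0.33, edgeR adjusted p = 0.0031) and 42.7 ± 23.5 CPM in DKO livers (-1.72, SE 0.38, adjusted p = 0.0255), with no KO liver in the WT range. The shared subunit Il6st had 168 ± 21.6, 167 ± 38.6 and 170 ± 19.0 CPM in WT, SKO and DKO livers. Stat3, the main transcription factor below them, fell from 134 ± 8.16 to 97.1 ± 14.4 CPM in SKO livers (-0.47, adjusted p = 0.016) and had 103 ± 14.1 CPM in DKO livers (-0.37, adjusted p = 0.0918), or -0.38 (adjusted p = 0.0353) without DKO replicate 4. The cytokine Clcf1 rose in SKO livers from 1.97 ± 0.79 to 10.5 ± 0.41 CPM (log2 fold change 2.40, edgeR adjusted p = 5.56e-05). In DKO livers it had 0.799 CPM in replicate 4 and up to 12.5 CPM in the others (2.01, adjusted p = 0.0781), and without replicate 4 it was called higher (2.38, adjusted p = 0.000162). Cebpb had 101 ± 39.9, 146 ± 56.6 and 135 ± 26.6 CPM in WT, SKO and DKO livers, and Cebpd 12.9 ± 6.55, 17.8 ± 8.29 and 18.0 ± 6.33 CPM, and neither passed the test. In DKO livers 1 gene of the list was lower (Il6ra) and none was higher, against 4.39% and 6.06% of all genes, while DESeq2 called 1 higher and 3 lower, against 9.72% and 8.64%. Without DKO replicate 4 there were 2 higher and 6 lower, against 18.4% and 17.5% of all genes.

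Il6 itself had at most 0.364 CPM in any liver and was too low to test, as was Tnf at most 0.468 CPM. Il1b had 2.86 ± 1.51, 2.64 ± 1.69 and 2.21 ± 1.67 CPM in WT, SKO and DKO livers and did not pass the test. Of the interleukin-1, Tnf and NF-kB list, 28 of 31 genes were tested, with 3 higher (Rela, Relb and Ikbkg) and 7 lower in SKO livers, against 16.7% and 15.4% of all genes. There were 1 higher (Relb) and 2 lower (Il1r1 and Il1rap) in DKO livers, against 6.06% and 4.39%, or 6 and 7 without DKO replicate 4, where 18.4% of all genes were higher and 17.5% lower. The interleukin-1 receptor accessory protein Il1rap fell from 149 ± 14.9 to 57.9 ± 7.36 CPM in SKO (log2 fold change -1.36, edgeR adjusted p = 2.36e-05) and to 82.4 ± 26.1 CPM in DKO livers (-0.84, adjusted p = 0.0344). The chemokine Cxcl1 fell in SKO livers from 2.68 ± 1.20 to 0.293 ± 0.255 CPM (-3.21, adjusted p = 0.000856). Relb, an NF-kB subunit, rose from 1.51 ± 0.12 to 3.07 ± 0.54 CPM in SKO (1.02, adjusted p = 0.00741) and 4.91 ± 1.87 CPM in DKO livers (1.71, adjusted p = 0.0167). The inhibitor Nfkbia had 32.3 to 60.0, 23.4 to 47.8 and 30.1 to 62.6 CPM, and the interleukin-1 receptor antagonist Il1rn had 3.02 ± 0.63, 5.86 ± 4.14 and 7.52 ± 7.68 CPM in WT, SKO and DKO livers, and neither passed the test.

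Glucocorticoids raise many acute-phase mRNAs together with cytokines. Of 8 genes for the glucocorticoid receptor and its targets, none was higher and 2 were lower in SKO livers, namely Tsc22d3 (149 ± 85.7 to 34.4 ± 15.4 CPM, log2 fold change -2.12, edgeR adjusted p = 0.00203) and Hsd11b1, the enzyme that regenerates active glucocorticoid (383 ± 29.0 to 186 ± 31.8 CPM, -1.04, adjusted p = 0.00021). Without SKO replicate 3 there were 5 lower, where 15.2% of all genes were lower, against 15.4% with it. In DKO livers 1 was lower (Dusp1, -1.19, adjusted p = 0.0354) and none was higher, and without DKO replicate 4 there were 6 lower, against 4.39% and 17.5% of all genes. In DKO against SKO edgeR and DESeq2 called no gene of the negative acute-phase, interleukin-6, interleukin-1 or glucocorticoid lists, and at an unadjusted p under 0.05 there were 1, 1, 3 and 0 higher and none lower, against 4.11% and 2.38% of all genes.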

How the data were processed

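RNA-seq was done on 12 livers, 4 each of WT, SKO and DKO, grouped by the genotype in the labels, and the labels state no batch or sex. Per the file headers, the table the authors deposited holds read counts, not normalized, of 56748 Ensembl genes. They also deposited a table of FPKM, which the authors scaled by gene length and by a factor of 0.886 to 1.17 per liver, and which was used only to order genes by level. The submitters' processing notes name HISAT2 and GRCm38 (mm10), but only 2.95% of 52125 genes shared with GENCODE M21 have the same start in the table, so its gene coordinates are of another build and are not printed. The counting program is not given in the sources used here. The authors also deposited tables of their own fold changes and p-values, which were not used.

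Each pair of genotypes was fitted on its 8 livers with edgeR 4.0.16 in R 4.3.3 (TMM, filterByExpr, quasi-likelihood test, two-sided, Benjamini-Hochberg over all genes tested), with an adjusted p under 0.05 as threshold, after tests on simulated data. The SE of a log2 fold change was taken from the F statistic. Livers of the same genotype were not duplicates (smallest chi-square per degree of freedom 20.6). The labels do not say that the mice were independent litters, so p-values measure the spread between these livers. The replicate numbers of the titles were not taken to pair the livers. Alternatives were RLE size factors, total counts only, DESeq2 1.42.0, no low-count filter, 1 fit of 12 livers, a replicate block, leaving out each liver, and leaving out the livers with Xist counts. In each comparison with WT the last is the same fit as leaving out SKO replicate 3 or DKO replicate 4, so the 15 alternatives count it again. Counting Saa1 with Saa2, and the Orm genes together, was an addition made once the data were known. Motifs were searched by letters on both strands of RefSeq promoter windows.

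The 10 genes and all lists were chosen with earlier results of these data known. By the rule for names, the text gives the 10 genes, of each list up to 3 called genes with the smallest p per direction and fixed upstream genes, checks of genotype and sex, first and called markers, and the 5 genes nearest in pattern. Saa4 and Clcf1 are among these, and 1 gene that the rule names is not reported here, while the markers Ly6g and Mpo, named because they were at 0, Csf3r, named because it was high enough to test, S100a9, F12, Hnf4a, Cps1 and the livers whose values are singled out were chosen after their values were seen.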

Additional observations from a re-analysis of the deposited data

Results flagged for a closer look

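Of 30 sets of 4 livers (10 genes in 3 genotypes), 8 held a liver whose gap to its nearest neighbour was above the 95% critical value of Dixon's test. For normally distributed values chance flags about 1 set in 20. The gaps were taken on CPM, not on a log scale, and CPM need not be normally distributed. That rate may therefore not apply, and no excess over chance is claimed. Saa1 stood at 341 CPM in SKO replicate 1, where the other SKO livers had 7.42 to 19.6 CPM, and at 189 CPM in DKO replicate 2, where the others had 13.9 to 20.1 CPM. Saa2 stood at 124 CPM in SKO replicate 1 against 3.84 to 4.04 CPM, and at 74.5 CPM in DKO replicate 2 against 3.61 to 7.13 CPM. Saa3 stood at 11.2 CPM in WT replicate 3 against 6.14 to 6.71 CPM, and at 4.58 CPM in DKO replicate 4 against 1.52 to 1.93 CPM. Orm2 stood at 92.3 CPM in SKO replicate 4 against 19.1 to 30.7 CPM. Lcn2 stood at 15.3 CPM in DKO replicate 4 against 1.78 to 3.19 CPM. The flags for Saa1 and Saa2 are the same pair of livers, and these genes may share reads, so they are not independent of each other. What sets these livers apart was not tested.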

How the results depend on the processing

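For SKO against WT, 4 to 6 of the 10 genes passed the threshold under every alternative, with 6 only without SKO replicate 1. For DKO against WT, 3 genes passed, against 1 to 5 when 1 liver was left out. The 5 came without DKO replicate 4, which is also the fit without the livers with Xist counts. For DKO against SKO no alternative called any of the 10. Over all genes, DKO against WT gave 1510 calls, 2635 by DESeq2, 691 with the replicate block and 244 (without WT replicate 2) to 5253 (without DKO replicate 4) with 1 liver left out, and DKO against SKO gave 3 calls, 97 by DESeq2, 35 without the low-count filter, 0 with the block, 0 to 15 with 1 liver left out and 21 without the livers with Xist counts.

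Leaving out 1 liver moved the log2 fold change of Saa1 between -1.69 and 1.49 (SKO against WT), -1.35 and 0.76 (DKO against WT) and -2.45 and 2.11 (DKO against SKO), and that of Saa2 between -1.54 and 1.94, -0.99 and 1.35, and -2.55 and 2.53. The replicate block gave Saa1 -0.70, -0.53 and 0.059, Saa2 -0.38, -0.082 and 0.32, and Lcn2 in DKO against SKO -0.39. The numbers did not pair the livers (correlations of same-numbered livers -0.419 to 0.15), and at most 2 of 8 livers correlated best with their own number. With the block Socs3 passed in SKO livers (adjusted p = 0.0138) and Saa3 was lost in DKO livers (adjusted p = 0.0581), and no other call of the 10 changed. DESeq2 gave no adjusted p for Saa1 and Saa2 in any comparison or for Lcn2 in DKO against WT.

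Orm3 in SKO livers ranged from -0.29 to 0.076 with 1 liver left out, and was 0.068 by total counts and 0.044 without SKO replicate 3, and in DKO livers it ranged from -0.028 to 0.81. In DKO against SKO, Lcn2 ranged from -1.11 to 0.47, Orm1 from -0.046 to 0.29 and Orm2 from -0.45 to 0.51, and without the livers with Xist counts Lcn2 was -0.76 and Orm1 -0.0065. None of these was past the threshold, and the cause was not tested. By total counts, or by FPKM multiplied back by gene length, 59 of 60 mean levels moved by less than 1 SD, and the exception was Serpina3n in WT (557 against 604 CPM). With 4 livers per genotype, genes under about 2 CPM rest on few counts.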
